A study of Oryza sativa with 45 samples.

Results

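The comparison of IR64(AG1,SUB1) with IR64(SUB1) after 14 d under water used 6 of the 45 libraries of the series, 3 of each line, which were chosen by the genotype and age on their labels. IR64(AG1,SUB1), labelled IR64-AG1SUB1, carries both the ANAEROBIC GERMINATION 1 (AG1) locus of Khao Hlan On and the SUBMERGENCE 1 (SUB1) locus of FR13A in the indica variety IR64, and IR64(SUB1), labelled IR64-SUB1, carries SUB1 without AG1. Both lines therefore share the SUB1A-1 allele, and the comparison asks what AG1 changes when SUB1 is present. The lines are near isogenic and were made by crossing and backcrossing. Donor segments beside the named loci or elsewhere can therefore also differ between them. A difference between the lines cannot be credited to AG1 alone. Seeds were sown dry and kept submerged in a nethouse, and each library was made from poly(A)+ RNA of pooled seedlings, from tissue that the labels call coleoptile and the methods call embryo, coleoptile and shoot. Reads were counted per gene, and the total count per library was 19923917 to 22994729 in IR64(AG1,SUB1) and 21494245 to 24870831 in IR64(SUB1). The 3 samples of a line are numbered replicates, from an experiment that the methods describe as run in biological triplicate.

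Seeds of rice that germinate under water extend a coleoptile on starch reserves and obtain ATP from glycolysis and ethanol fermentation, in which pyruvate decarboxylase and alcohol dehydrogenase regenerate NAD+. AG1 is attributed to TPP7, a trehalose-6-phosphate phosphatase that favors starch mobilization and coleoptile growth. SUB1A-1 encodes an ethylene response factor that restrains elongation and spares carbohydrate in submerged leaves. Seedlings that emerge from the coleoptile go on to form green leaves.

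SUB1A, the ethylene response factor gene that both lines carry, stood at 163, 166 and 129 CPM (counts scaled to the library size) in IR64(AG1,SUB1) and at 101, 153 and 164 CPM in IR64(SUB1). The ranges overlapped, and the log2 fold change of 0.13 ± 0.31 (SE) did not pass the test (edgeR quasi-likelihood, Benjamini-Hochberg adjusted p = 0.969). IR64(AG1) and IR64 both carry the allele SUB1A-2 and not SUB1A-1. Reads on this entry came to 22.4 to 25 CPM in IR64(AG1) and to 9.46 to 15.2 CPM in IR64. The sources used here do not pair TPP7 with an identifier of the count table. The unnamed gene OS09G0369400, on chromosome 9, stood at 368, 234 and 234 CPM in IR64(AG1,SUB1), against 0.201, 0.122 and 0.103 CPM in IR64(SUB1). It was likewise at 331 to 418 CPM in IR64(AG1) and at 0.124 to 0.382 CPM in IR64, and all 6 libraries labelled with AG1 stood above all 6 without it at 14 d.

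Among 26180 tested genes, 595 (2.27%) were called between the lines at 14 d, by an adjusted p under 0.05 and a change of more than 1 on the log2 scale in either direction. The calls ran mainly in one direction, since 545 genes (2.08%) rose in IR64(AG1,SUB1) relative to IR64(SUB1) and 50 (0.191%) fell. The median log2 fold change over all tested genes was 0.012. With no limit on the fold change, 835 genes passed the adjusted p with a higher and 128 with a lower level in the pyramided line. In CPM, 531 of the 545 genes called higher (97.4%) had all 3 IR64(AG1,SUB1) libraries above all 3 IR64(SUB1) libraries, against 13.5% of all tested genes. All 50 genes called lower were apart in the opposite direction, against 9.06% of all tested genes.

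The libraries were not equal in the size of the difference. Replicate 1 of IR64(AG1,SUB1) was the lowest of its 3 libraries for 451 of the 545 genes called higher (82.8%), against 40% of all tested genes. The median level of the 545 genes was 2.11, 2.99 and 2.96 log2 CPM in IR64(AG1,SUB1) and 0.34, 0.21 and 0.26 log2 CPM in IR64(SUB1). Replicate 1 thus stood between the other 2 IR64(AG1,SUB1) libraries and the IR64(SUB1) libraries, and without it 609 genes were called higher and 67 lower. The same genes also varied within lines that were not compared, with medians of 1.36, 0.77 and 1.26 log2 CPM in IR64(AG1) and of 1.22, 0.18 and 1.67 log2 CPM in IR64, where replicate 2 was the lowest library for 437 of the 545 genes. Of the 545 genes, 344 (63.1%) were higher in each IR64(AG1,SUB1) library than in each of the 9 other libraries of 14 d, against 3.54% of all tested genes. The 9 include the 3 IR64(SUB1) libraries, against which the genes were chosen. The excess over all tested genes therefore follows in part from the choice. The part that the makeup of single seedling pools has in these values was not tested.

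**Figure D1:**
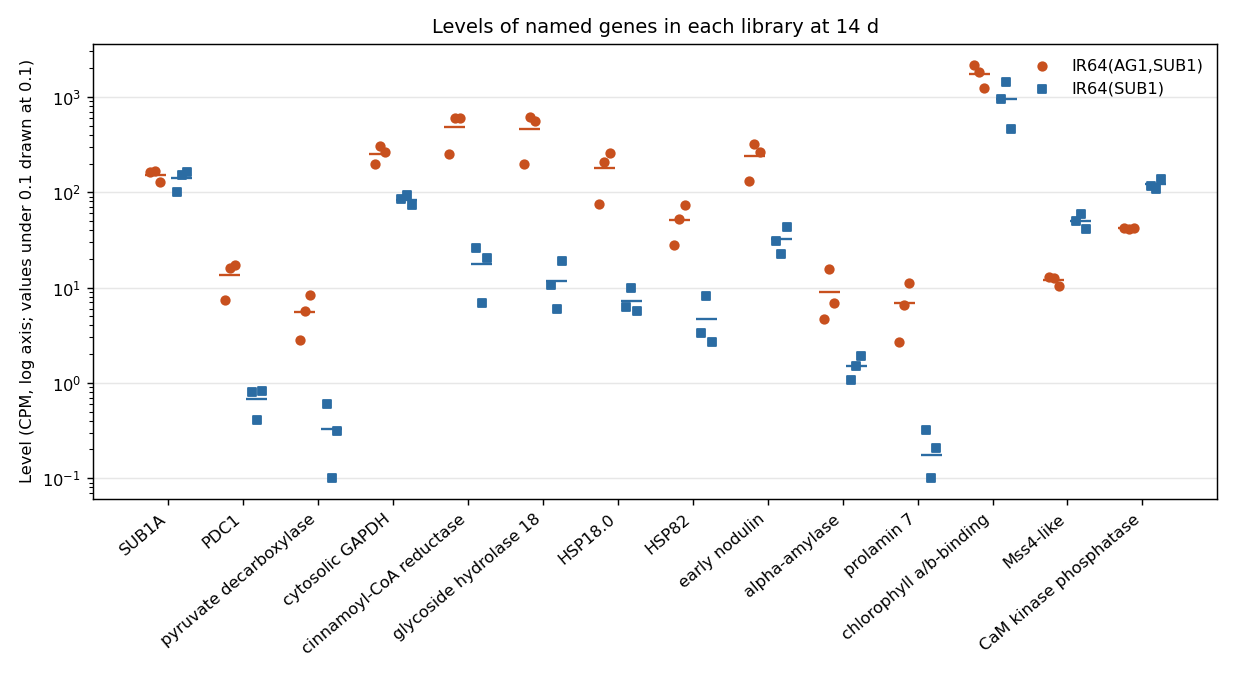
Level of 14 genes in CPM, on a log axis, in the 3 libraries of IR64(AG1,SUB1) (circles, left) and of IR64(SUB1) (squares, right) at 14 d, with lines at the group means and levels under 0.1 CPM drawn at 0.1. SUB1A and a chlorophyll a/b-binding gene overlap between the lines, 10 genes stand higher and 2 stand lower in IR64(AG1,SUB1), and replicate 1 is the lowest circle for most of the higher genes.

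The genes that were higher in IR64(AG1,SUB1) were mostly genes that decline late in the submergence of IR64 itself. In the 3 IR64 libraries of 14 d against the 3 of 8 d, which enter neither side of the comparison, 483 of the 545 genes (88.6%) fell and 8 (1.47%) rose, whereas 10.9% of all tested genes fell and 17.0% rose. The 483 genes make up 16.9% of the 2864 genes that fell in IR64 over this interval. The median change of the 545 genes in IR64 was -2.77 on the log2 scale, beside 0.00 for all tested genes. Against 2 d, 436 of them (80.0%) were lower at 14 d in IR64, beside 17.7% of all tested genes, and 49.5% of all tested genes were called in either direction over that span. Of the 50 genes that were lower in IR64(AG1,SUB1), 2 fell and 14 rose between 8 and 14 d in IR64, with a median change of 0.39. No test was made of these shares, since genes are not replicates.

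**Figure D2:**
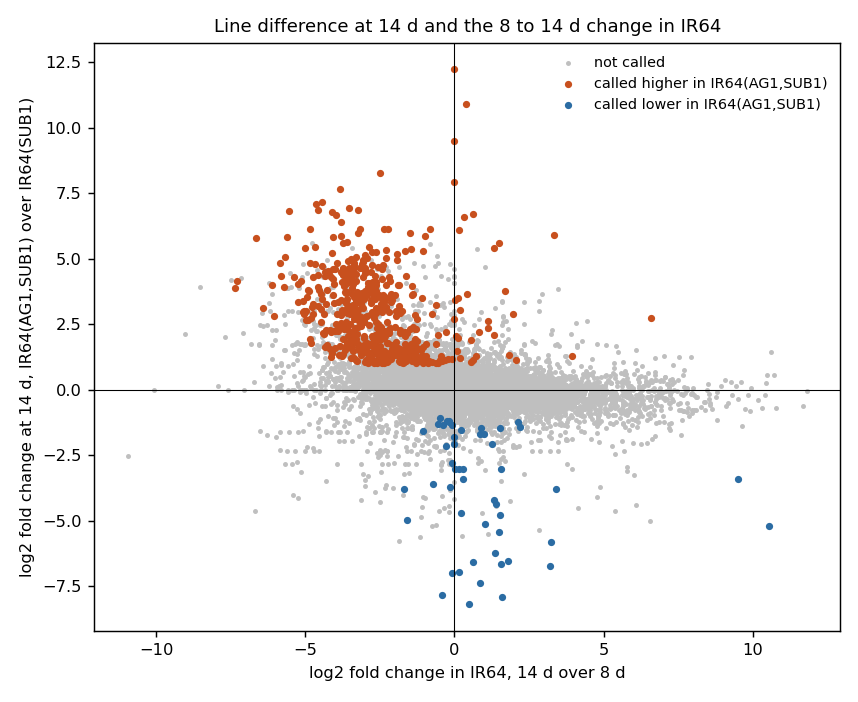
Each point is a tested gene, with the log2 fold change between 8 and 14 d in IR64 on the x axis and the log2 fold change of IR64(AG1,SUB1) over IR64(SUB1) at 14 d on the y axis. The genes called higher (upper points) lie mainly left of 0, 483 of 545 of them having fallen in IR64, while the 50 genes called lower lie on both sides.

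The lines were closer together on the earlier days in these genes. The 545 genes had a median of 4.68 to 4.86 log2 CPM in the 2 IR64(AG1,SUB1) libraries of 2 d and of 4.29 to 4.42 log2 CPM in the 3 IR64(SUB1) libraries. At 4 d the medians were 4.70 to 4.72 log2 CPM in IR64(AG1,SUB1) and 4.38 to 4.47 log2 CPM in IR64(SUB1). By 8 d the gap had widened to 3.76 to 4.16 log2 CPM in IR64(AG1,SUB1) against 2.62 to 3.04 log2 CPM in IR64(SUB1), and at 14 d the lines stood at 2.11 to 2.99 log2 CPM in IR64(AG1,SUB1) against 0.21 to 0.34 log2 CPM in IR64(SUB1). Levels thus dropped in both lines. The genes were chosen by their difference at 14 d, so the width of the gap on that day follows from the choice. The 50 genes that were lower showed another course, with medians between -2.73 and -0.76 log2 CPM in IR64(AG1,SUB1) and between 1.29 and 2.11 log2 CPM in IR64(SUB1) over all libraries of the 4 days.

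**Figure D3:**
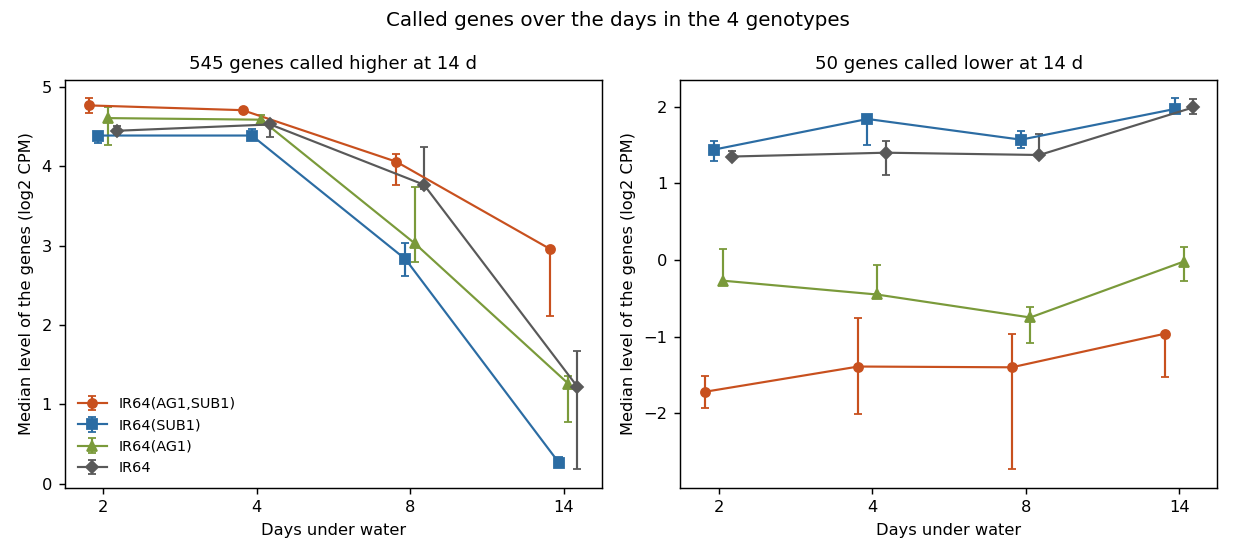
Median level, in log2 CPM, of the 545 genes called higher (left) and the 50 called lower (right) at 14 d in the 4 genotypes at 2, 4, 8 and 14 d. Points are the median library and bars run from the lowest to the highest library; the higher genes, chosen by their difference at 14 d, drop after 4 d in all genotypes, while the lower genes stay apart on every day.

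A stage score places each library on the line from the mean of the IR64 libraries at 8 d, set to 0, to their mean at 14 d, set to 1, over all tested genes. IR64(AG1,SUB1) scored 0.895, 0.823 and 0.812 at 14 d and IR64(SUB1) scored 1.007, 1.009 and 1.010. All 3 libraries of IR64(AG1,SUB1) were below all 3 of IR64(SUB1), with a difference of -0.165 in the mean (0.843 ± 0.045 against 1.008 ± 0.002, SD, n = 3 each). The exact two-sided permutation test gave p = 0.1, the smallest value that 3 against 3 libraries allow, so the design cannot reach 0.05. At 8 d the scores were 0.085 to 0.195 in 3 libraries of IR64(AG1,SUB1) and 0.274 to 0.314 in 2 of IR64(SUB1). IR64(AG1) scored 0.996 to 1.021 at 14 d.

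**Figure D4:**
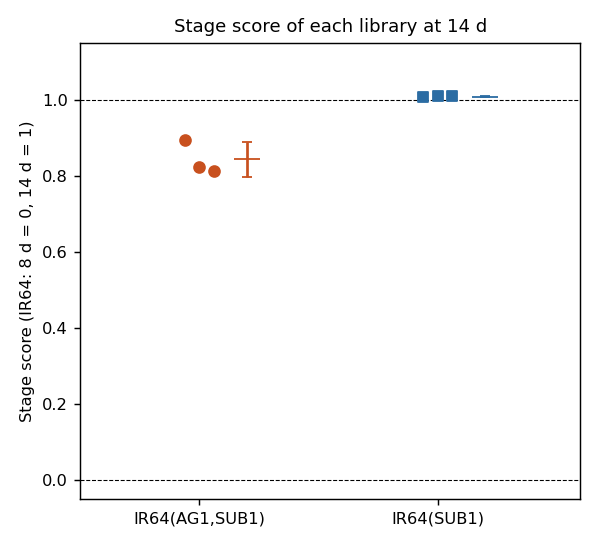
Stage score of each library at 14 d, where 0 and 1 (dashed lines) are the means of IR64 at 8 and 14 d; points are libraries and bars beside them the mean and SD. The IR64(AG1,SUB1) libraries lie at 0.812 to 0.895 and the IR64(SUB1) libraries at 1.007 to 1.010.

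The genes of this paragraph were among the most abundant described genes that rose, and were picked after their values were seen. Pyruvate, phosphate dikinase (OS03G0432100), which interconverts pyruvate and phosphoenolpyruvate, had 564, 1013.2 and 753 CPM in IR64(AG1,SUB1), against 67.3, 67.7 and 101 CPM in IR64(SUB1) (log2 fold change 3.30 ± 0.51, adjusted p = 1.63e-05, edgeR). The salt-induced lectin SalT (OS01G0348900) had 377, 833 and 1000 CPM in IR64(AG1,SUB1) and 73.4, 56.9 and 59.4 CPM in IR64(SUB1) (3.54 ± 0.37, adjusted p = 2.01e-08). A receptor-like protein whose description refers to root development (OS04G0659300) had 302, 841 and 800 CPM in IR64(AG1,SUB1) and 49.3, 40.9 and 42.3 CPM in IR64(SUB1) (3.87 ± 0.41, adjusted p = 2.81e-08). These genes did not overlap between the lines, and in each replicate 1 was the lowest of the IR64(AG1,SUB1) libraries. In the lines outside the comparison, the dikinase was at 221, 31.8 and 145 CPM in IR64(AG1) and at 282, 16.7 and 274 CPM in IR64, so that replicate 2 of each was under the IR64(SUB1) level while the others were above it.

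Of the 10 described genes with the largest rises at a mean of 5 CPM or more, 3 encode cinnamoyl-CoA reductases, which commit feruloyl-CoA to lignin monomers. The most abundant (OS02G0811800) had 251, 597 and 607 CPM in IR64(AG1,SUB1) and 26.1, 6.89 and 20.5 CPM in IR64(SUB1) (4.77 ± 0.59, adjusted p = 3.09e-07). Its neighbor OS02G0811400 rose by 4.70 and OS02G0808800 by 4.62 on the log2 scale. A pair of adjacent glycoside hydrolases of the family that holds plant chitinases rose with them. OS05G0247800 had 198, 621 and 558 CPM in IR64(AG1,SUB1) and 10.6, 5.92 and 18.8 CPM in IR64(SUB1), a 39.0-fold difference of means (5.28 ± 0.79, adjusted p = 8.85e-06), and OS05G0248200 had a log2 fold change of 4.96. Such near copies may share reads, so that their values are not independent. A serine palmitoyltransferase (OS01G0928700), an enzyme that opens sphingolipid synthesis, had the largest rise of these 10, with 6.49, 22.8 and 14.5 CPM in IR64(AG1,SUB1) and 0.281, 0.122 and 0.310 CPM in IR64(SUB1) (5.88, adjusted p = 2.24e-08). A protein kinase (OS02G0210700, 4.65), an AMP-binding protein (OS01G0342900, 4.51), a small heat shock protein and a pectinesterase completed these 10.

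Descriptions come from the datasets of the paper, which cover 3237 of the tested genes. Of these, 1830 are there because the study had called them between genotypes, and 11.5% of them were called higher here and 1.69% lower. The other 1407, on chromosome 1, were not chosen on a result, and 1.49% of them were higher and 0.213% lower. The gene lists below mix both sources, so their counts are not independent evidence of a direction. Of 33 lists, 16 held at least 1 called gene, and their medians are set beside the 0.012 of all tested genes.

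**Figure D5:**
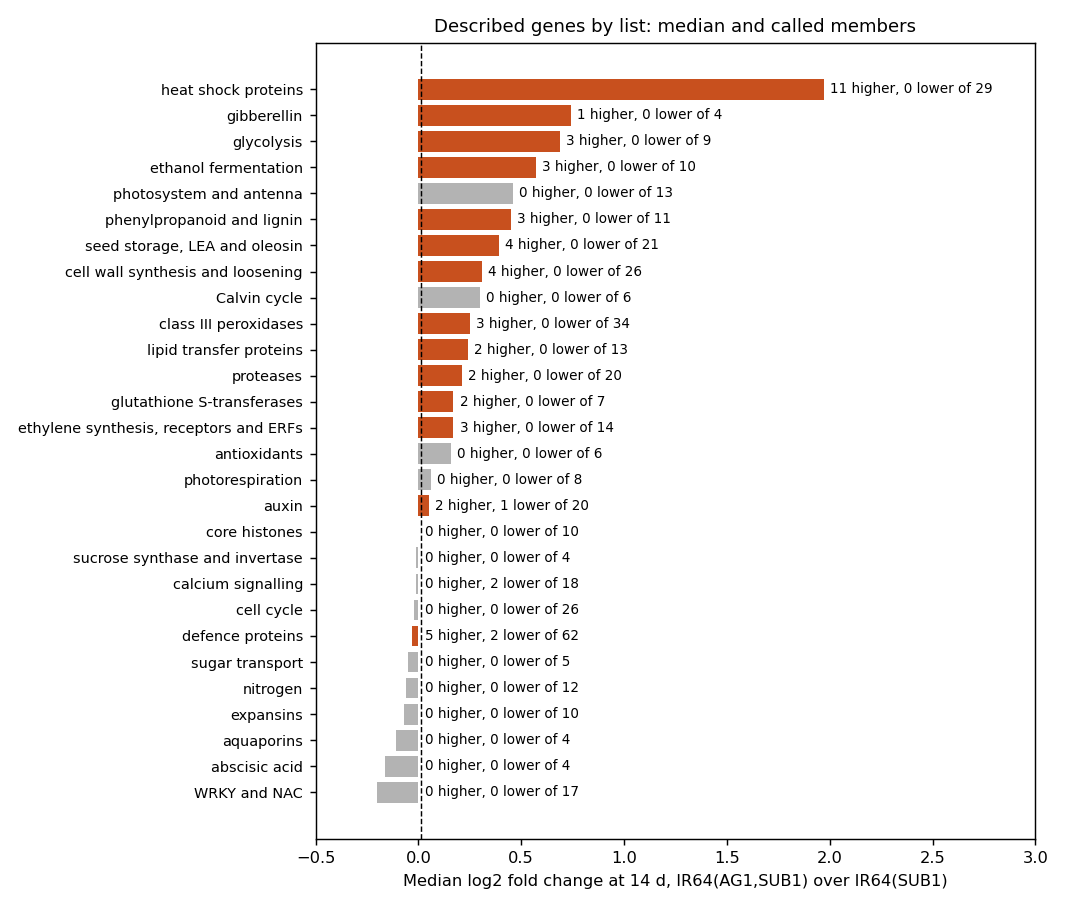
Median log2 fold change of IR64(AG1,SUB1) over IR64(SUB1) at 14 d in each list of 4 or more tested genes, with the number of called members beside each bar; the dashed line is the median of all tested genes, and colored bars are lists with a gene called higher. Heat shock proteins have a median of 1.97, and the lists of photosynthesis, cell cycle and histones hold no called gene.

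Heat shock proteins are chaperones that bind unfolded proteins. Of 29 tested, 11 were higher in IR64(AG1,SUB1) and 0 lower, with a median log2 fold change of 1.97, and among the 12 that lie in the part of chromosome 1 described without regard to a result, 2 were higher. The small heat shock protein Oshsp18.0 (OS03G0267000) had 75.7, 208 and 256 CPM in IR64(AG1,SUB1) and 6.18, 9.81 and 5.67 CPM in IR64(SUB1) (4.64 ± 0.81, adjusted p = 0.000125). The class I gene OS03G0266300, the most abundant of those called, had 361, 506 and 645 CPM in IR64(AG1,SUB1) and 85.7, 197 and 102 CPM in IR64(SUB1) (1.97 ± 0.36, adjusted p = 0.000258). Genes of larger chaperones, picked after their values were seen, rose as well. An HSP70 (OS03G0277300) had 52.6, 112 and 135 CPM in IR64(AG1,SUB1) and 7.83, 12.4 and 7.33 CPM in IR64(SUB1) (3.45, adjusted p = 1.61e-05). HSP101 (OS05G0519700), a disaggregase needed for thermotolerance, had 80.5, 162 and 152 CPM in IR64(AG1,SUB1) and 14.9, 22.8 and 12.7 CPM in IR64(SUB1) (2.97, adjusted p = 0.000195). An HSP82 gene (OS04G0107900) had 27.8, 52.5 and 73.9 CPM in IR64(AG1,SUB1) and 3.37, 8.11 and 2.68 CPM in IR64(SUB1) (3.45 ± 0.82, adjusted p = 0.00695). Summed over the 29 genes, the level was 1733, 2206 and 2420 CPM in IR64(AG1,SUB1) and 935, 1285 and 950 CPM in IR64(SUB1). Without replicate 3 of IR64(SUB1) the count was 5, and the HSP82 gene was no longer called (adjusted p = 0.0676, and 0.0616 without replicate 1 of that line). Another HSP70 gene (OS05G0428600, 4.34, adjusted p = 0.0263) lost its call in 5 of the 6 fits without a library and a class IV small heat shock gene (OS04G0445100, 3.61, adjusted p = 0.0281) in 4. Of the same list, 16 fell and 5 rose between 8 and 14 d in IR64.

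The fermentation and glycolysis genes rose in part. Among 10 tested genes of ethanol fermentation, 3 were higher and 0 lower (median 0.57). PDC1 (OS05G0469600), which converts pyruvate to acetaldehyde, had 7.42, 15.9 and 17.4 CPM in IR64(AG1,SUB1) and 0.803, 0.405 and 0.825 CPM in IR64(SUB1) (4.3 ± 0.58, adjusted p = 1.29e-06). Its neighbor OS05G0469800, also a pyruvate decarboxylase, had 2.80, 5.66 and 8.34 CPM in IR64(AG1,SUB1) and 0.602, 0.0811 and 0.310 CPM in IR64(SUB1) (4.07, adjusted p = 1.5e-06). The third is described as a cinnamyl alcohol dehydrogenase (OS04G0612700), an enzyme of lignin and not of ethanol synthesis that the word search took up, with 39.4, 125 and 97.5 CPM in IR64(AG1,SUB1) and 6.06, 3.73 and 5.33 CPM in IR64(SUB1). PDC1 was already higher at 8 d (2.42, adjusted p = 0.00269) and not at 2 d (0.37, adjusted p = 0.686) or 4 d (0.03, adjusted p = 1.00).

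Of 9 glycolysis genes, 3 were higher and 0 lower (median 0.69). The cytosolic glyceraldehyde-3-phosphate dehydrogenase gene OS02G0601300 had 198, 302 and 263 CPM in IR64(AG1,SUB1) and 84.8, 93.0 and 72.8 CPM in IR64(SUB1) (1.61 ± 0.23, adjusted p = 5.61e-06). A hexokinase (OS01G0190400), which phosphorylates glucose, had 34.6, 46.6 and 39.2 CPM in IR64(AG1,SUB1) and 21.1, 19.8 and 15.7 CPM in IR64(SUB1) (1.09). A cytosolic pyruvate kinase (OS01G0276700) had 105, 148 and 164 CPM in IR64(AG1,SUB1) and 67.8, 67.8 and 67.3 CPM in IR64(SUB1) (1.04). The last 2 lie at the limit of the fold change. The hexokinase went under it without replicate 2 of IR64(AG1,SUB1) (0.97) or replicate 3 of IR64(SUB1) (0.98). The pyruvate kinase went under it without replicate 2 (0.99) or 3 (0.90) of IR64(AG1,SUB1), so that the count was 1 without replicate 2. With all libraries kept, the pyruvate kinase was also under the limit (0.996) with 5 counts added and the likelihood ratio test. It was at the same value with the replicate number as a block in the 14 d fit.

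Reserve mobilization was represented by few described genes. An alpha-amylase (OS01G0357400), a starch-degrading enzyme of germinating grain, was the only tested gene of the starch breakdown list and had 4.71, 15.6 and 6.82 CPM in IR64(AG1,SUB1) and 1.08, 1.5 and 1.93 CPM in IR64(SUB1) (2.57 ± 0.45, adjusted p = 0.000125). In the transport and sucrose lists no gene was called. The hexose transporter gene MST4 (OS03G0218400) had 7.10, 10.3 and 7.84 CPM in IR64(AG1,SUB1) and 4.3, 6.57 and 4.23 CPM in IR64(SUB1) (0.75, adjusted p = 0.312). The most abundant sugar transporter gene of the list, a monosaccharide transporter (OS07G0559700), had 355, 193 and 189 CPM in IR64(AG1,SUB1) and 388, 423 and 356 CPM in IR64(SUB1) (-0.66, adjusted p = 0.148), and was called lower without replicate 1 of IR64(AG1,SUB1) (-1.03, adjusted p = 0.0095). The only tested gene of the trehalose list, a trehalose-6-phosphate phosphatase (OS02G0753000), had 4.95, 4.09 and 4.48 CPM in IR64(AG1,SUB1) and 4.66, 5.11 and 3.58 CPM in IR64(SUB1) (0.02, adjusted p = 1). The transcription factor MYBS1 (OS01G0524500), an activator of sugar-starvation responses, had 15.7, 18.4 and 15.6 CPM in IR64(AG1,SUB1) and 14.5, 15.8 and 14.3 CPM in IR64(SUB1) (0.15, adjusted p = 0.919).

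Genes of the seed itself were among the calls at low levels. Of 21 tested genes for storage proteins, late embryogenesis proteins and oleosins, 4 were higher (19%) and 0 lower (median 0.39). Among all described genes that the study had called, 11.5% were higher. Of the 21, 6 were not chosen on a result, and 0 of these were called. Prolamin 7 (OS05G0328800) had 2.71, 6.58 and 11.2 CPM in IR64(AG1,SUB1) and 0.321, 0.00 and 0.206 CPM in IR64(SUB1) (5.23, adjusted p = 0.000494). An oleosin (OS06G0473800), a coat protein of oil bodies, had 1.03, 2.58 and 2.92 CPM in IR64(AG1,SUB1), and in IR64(SUB1) a single count in replicate 1 and 0 in the others. A glutelin (OS02G0453600) had 11, 9 and 27 counts in IR64(AG1,SUB1) and 0 in all 3 IR64(SUB1) libraries, which with a floor of 3 counts per library is at least 5.74-fold higher. This glutelin was at 0.514, 0.414 and 1.05 CPM in IR64(AG1,SUB1) and at 0.518, 0.322 and 0.54 CPM in IR64(AG1). Another glutelin (OS03G0427300, 3.65, adjusted p = 0.00555, edgeR) lost its call with only the 14 d libraries in the fit (adjusted p = 0.0644). The summed level of the list did not move with them, at 468 to 483 CPM in IR64(AG1,SUB1) and 488 to 514 CPM in IR64(SUB1). Viviparous-1 (OS01G0911700), a transcription factor of seed maturation that was picked after its values were seen, had 2.47, 5.66 and 7.48 CPM in IR64(AG1,SUB1) and 0.602, 0.162 and 0.344 CPM in IR64(SUB1) (3.81, adjusted p = 7.16e-07). The germination regulator MOTHER OF FT AND TFL1 (OS01G0111600), picked likewise, had 3.73, 7.45 and 8.54 CPM in IR64(AG1,SUB1) and 0.688 to 1.69 CPM in IR64(SUB1) (2.52, adjusted p = 4e-08).

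Leaf genes gave no call. None of the 13 tested photosystem and antenna genes, 6 Calvin cycle genes, 3 chlorophyll synthesis genes or 8 photorespiration genes was called, and all 13 of the first list had a log2 fold change above 0 (median 0.46). A type I chlorophyll a/b-binding gene (OS01G0720500) had 2177.4, 1835.6 and 1227.1 CPM in IR64(AG1,SUB1) and 942.0, 1417.9 and 465.0 CPM in IR64(SUB1), with overlapping ranges (0.89, adjusted p = 0.236). The summed level of the 13 genes was 7783 to 13172 CPM in IR64(AG1,SUB1) and 4772 to 9614 CPM in IR64(SUB1), and none was at 0, so leaf markers were detected in all 6 libraries of tissue labelled coleoptile. GUN4 (OS11G0267000), a regulator of magnesium chelatase, had 90.6, 81.4 and 76.2 CPM in IR64(AG1,SUB1) and 64.9, 65.6 and 51.7 CPM in IR64(SUB1), which did not overlap and did not pass the test (0.45, adjusted p = 0.391). The glycolate oxidase GLO1 (OS03G0786100) had 133, 132 and 146 CPM in IR64(AG1,SUB1) and 127, 124 and 131 CPM in IR64(SUB1) (0.10, adjusted p = 0.964). GLO3 (OS04G0623500), another glycolate oxidase, had 10.8, 9.24 and 9.04 CPM in IR64(AG1,SUB1) and 17.8, 18.7 and 19.9 CPM in IR64(SUB1), a log2 fold change of -0.96 that passed the adjusted p (0.000455) and missed the limit on the fold change, which it passed without replicate 1 of IR64(AG1,SUB1) (-1.04). The single KNOX gene, a marker of the shoot meristem, was at 6.44 to 7.24 CPM in IR64(AG1,SUB1) and 3.93 to 6.12 CPM in IR64(SUB1). The proportions of seedling organs in a pool and the RNA per organ cannot be told apart in these libraries.

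Genes of the cell wall and its lignification rose in subsets. Of 26 genes for wall polymers and their enzymes, 4 were higher (15.4%) and 0 lower (median 0.31). Among all described genes that the study had called, 11.5% were higher, so this share is near that of its main source. Of the 26, 6 were not chosen on a result, and 1 of these was called. The 4 called include OS05G0104700 (3.93), described as a defence protein that inhibits fungal polygalacturonase, which the word search took up. A pectinesterase (OS02G0288100), which demethylates pectin, had 19.3, 32.3 and 27.2 CPM in IR64(AG1,SUB1) and 1.00, 0.811 and 1.96 CPM in IR64(SUB1) (4.35, adjusted p = 4.38e-06). OS01G0788400, another pectinesterase, had 23.9, 68.0 and 78.0 CPM in IR64(AG1,SUB1) and 4.70, 3.65 and 5.43 CPM in IR64(SUB1). Of 11 phenylpropanoid genes 3 were higher, namely the cinnamoyl-CoA reductases OS02G0811800 and OS02G0808800 and the cinnamyl alcohol dehydrogenase above. The word search left out the reductase OS02G0811400 and its neighbor OS02G0811600 (5.03), both called higher, so the count of 3 is incomplete. Of 34 class III peroxidases, which couple phenolics in the wall, 3 were called (8.82%). They were neighbors on chromosome 3 (OS03G0368000, OS03G0368300 and OS03G0369000) with log2 fold changes of 2.65 to 2.98. None of the 13 peroxidases that were not chosen on a result was called. None of 10 expansins, the proteins that loosen walls during growth, was called. EXPB11 (OS02G0658800) had 25.4, 23.5 and 20.6 CPM in IR64(AG1,SUB1) and 35.1, 24.3 and 17.3 CPM in IR64(SUB1), EXPA6 (OS03G0336400) had a log2 fold change of -0.25 and EXPA1 (OS04G0228400) of 0.61. The transporter RCN1 (OS03G0281900) was at 23.8, 26.0 and 21.2 CPM in IR64(AG1,SUB1) and 28.7, 29.8 and 20.5 CPM in IR64(SUB1) (-0.15, adjusted p = 0.954).

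The lists of growth and division held no called gene. None of 26 cell cycle genes (median -0.02) and none of 10 core histone genes (median 0.00) was called. The replication licensing factor CDT1A (OS04G0185100) had a log2 fold change of -0.14 (adjusted p = 0.959) and the replication protein RPA70B (OS03G0214100) of 0.12 (adjusted p = 0.961).

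Hormone and defence genes were mixed. Their shares stand beside 11.5% higher among the described genes that the study had called and 2.08% among all tested genes. Of the members not chosen on a result, 2 of the ethylene, 8 of the auxin and 22 of the defence list, 0 were called. Of 14 genes of ethylene synthesis and response 3 were higher (21.4%). Among them the ERF gene OS04G0398000 had 12, 20.2 and 26.3 CPM in IR64(AG1,SUB1) and 5.18, 4.05 and 5.23 CPM in IR64(SUB1) (2.02, adjusted p = 8.76e-07). Of 20 auxin genes 2 were higher (10%) and 1 lower. Those higher are described as IAA12 (OS02G0805100, 2.91) and an auxin-conjugating synthetase (OS01G0764800, 2.28) and the gene lower as SAR1 (OS02G0142950, -4.37). A gibberellin-stimulated gene of the GAST family (OS03G0760800) had 127, 226 and 193 CPM in IR64(AG1,SUB1) and 70.3, 68.8 and 77.5 CPM in IR64(SUB1) (1.33, adjusted p = 0.00475), a call that was lost without replicate 2 of IR64(AG1,SUB1) (adjusted p = 0.0531). The brassinosteroid C-6 oxidase gene OsDWARF (OS03G0602300), picked after its values were seen, had 39.6, 77.4 and 85.3 CPM in IR64(AG1,SUB1) and 18.5, 20.9 and 24.4 CPM in IR64(SUB1) (1.66, adjusted p = 5.17e-06). Of 62 defence genes 5 were higher (8.06%) and 2 lower (median -0.03), and those lower were 2 NBS-LRR genes of chromosome 2 (OS02G0118800 and OS02G0118950). Those higher include the ERF genes OS04G0398000 and OS04G0547600, whose descriptions also hold the words pathogenesis-related, and the proteinase inhibitor given below. The ethylene and defence counts therefore share genes. The 7 calls of the defence list became 13 with 5 counts added and the likelihood ratio test and 12 with the replicate number as a block. A cysteine protease (OS01G0907600) was at 176, 408 and 265 CPM in IR64(AG1,SUB1) and 83.9, 79.5 and 70.2 CPM in IR64(SUB1) (1.86, adjusted p = 9.64e-07), and a cysteine proteinase inhibitor (OS01G0915200) at 7.19, 17.9 and 12.6 CPM in IR64(AG1,SUB1) and 0.361, 0.730 and 0.791 CPM in IR64(SUB1) (4.29). No gene was called among 17 WRKY and NAC factors, 6 antioxidant enzymes, 12 nitrogen genes, 4 aquaporins, 4 abscisic acid genes, 3 diterpenoid genes and 2 wax genes. A WRKY gene (OS01G0246700) passed the adjusted p (0.000296) with a log2 fold change of -0.63, under the limit.

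Neighboring genes moved together in places. There were 27 runs of 3 or more genes called higher with no more than 2 tested genes between neighbors, holding 106 genes, and 4 such runs of genes called lower, holding 12. The longest lay on chromosome 11, where 11 successive tested genes were higher by 2.68 to 4.74 on the log2 scale, with summed levels of 542, 1380 and 1600 CPM in IR64(AG1,SUB1) and 59.4, 26.5 and 82.1 CPM in IR64(SUB1). A run of 6 on chromosome 10 summed to 1160, 3480 and 3510 CPM in IR64(AG1,SUB1) and 127, 64.6 and 138 CPM in IR64(SUB1), and a run of 6 on chromosome 7 was higher by a median of 3.40 on the log2 scale. Apart from 1 gene on chromosome 7 the members of these 3 runs have no description here. On chromosome 6, 6 of the 7 tested early nodulin genes were higher, a group chosen after its values were seen. The most abundant (OS06G0142200) had 132, 324 and 263 CPM in IR64(AG1,SUB1) and 30.9, 22.3 and 42.7 CPM in IR64(SUB1) (2.90 ± 0.38, adjusted p = 1.05e-06). Genes in such runs can be near copies that share reads.

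The 50 genes that were lower were few and gathered on chromosome 2, which held 21 of them (0.692% of its tested genes, beside 0.191% over all chromosomes), and on chromosome 9, which held 9 (0.616%). Chromosomes 6 and 12 held 0. Between the NBS-LRR gene OS02G0118800 and the kinase gene OS02G0156300, a stretch of 247 tested genes bounded after the values were seen, 17 genes were lower and 6 higher. The Ca2+/calmodulin-dependent protein kinase phosphatase OS02G0151800 had 41.8, 41.5 and 42.4 CPM in IR64(AG1,SUB1) and 116, 108 and 139 CPM in IR64(SUB1) (-1.53 ± 0.10, adjusted p = 6.21e-14). A gene for a calmodulin-binding protein (OS02G0145000, -2.14) was the other of 18 calcium signalling genes that fell, and none of that list rose. A gene of unknown function (OS02G0156100) had 1, 5 and 8 counts in IR64(AG1,SUB1) and 410, 338 and 474 counts in IR64(SUB1) (-6.22, adjusted p = 8.06e-13). In IR64(AG1) against IR64 at 14 d, other libraries with the same locus difference, 19 genes of this stretch were lower and 10 higher. On chromosome 5 the ankyrin repeat gene OS05G0124600 had 8, 0 and 0 counts in IR64(AG1,SUB1) and 233, 295 and 391 counts in IR64(SUB1) (-6.55, adjusted p = 3.22e-10). It was at 14.1 to 16.3 CPM in IR64(AG1) and 4.3 to 6.53 CPM in IR64, above IR64 in all 3 libraries of IR64(AG1). The Mss4-like gene OS05G0126800 was at 12.8, 12.5 and 10.4 CPM in IR64(AG1,SUB1) and 50.3, 58.6 and 41.4 CPM in IR64(SUB1) (-2.07, adjusted p = 5.66e-08), and a metal-nicotianamine transporter gene (OS02G0649900), for iron and manganese, at 30.3, 41.8 and 28.3 CPM in IR64(AG1,SUB1) and 62.3, 93.6 and 120 CPM in IR64(SUB1) (-1.46, adjusted p = 0.000931).

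The same pair of lines was compared on the other days with libraries of their own. On day 2 the test called 904 genes (3.45%), with 298 higher in IR64(AG1,SUB1) and 606 lower (2.31%). On day 4 it called 226 (0.863%), with 73 higher (0.279%) and 153 lower (0.584%), and on day 8 it called 385 (1.47%), with 312 higher (1.19%) and 73 lower (0.279%). Of the 545 genes higher at 14 d, 193 were also higher at 8 d, which is 35.4% of the 14 d and 61.9% of the 8 d genes. The overlap with the genes higher at 4 d was 21, which is 3.85% of the 14 d and 28.8% of the 4 d genes. The median log2 fold change of the 545 genes was 1.2 at 8 d, 0.32 at 4 d and 0.33 at 2 d. Genes called lower at 14 d were also called lower on the other days, with 29 of the 50 at 8 d, 28 at 4 d and 20 at 2 d. These are 58.0%, 56.0% and 40% of the 50, and 39.7%, 18.3% and 3.3% of the genes called lower on those days. Called in the same direction on all 4 days were 12 genes higher and 16 lower. Of the 12, 4 lay on chromosome 2, 4 on chromosome 10 and 3 on chromosome 9, and of the 16, 10 lay on chromosome 2. In IR64(AG1) against IR64 at 14 d, 5 of the 12 and 11 of the 16 were also called. There the 4 higher genes of chromosome 2 had log2 fold changes of 2.38 to 8.62 and the 4 of chromosome 10 of -0.07 to 0.23. A further run of 6 genes called higher on chromosome 10, picked after its values were seen, held 2 of these 4. Among the higher genes, the unnamed OS09G0337300 had 575, 711 and 790 counts in IR64(AG1,SUB1) and 0 in each IR64(SUB1) library at 14 d. This is at least 262-fold higher with a floor of 3 counts per library. The gene was at 0 in IR64(AG1) and IR64 as well.

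The difference between a line with and a line without AG1 was measured in the absence of SUB1 by the contrast of IR64(AG1) with IR64 at 14 d. It called 88 genes (0.336%), of which 33 were higher and 55 lower in IR64(AG1). Of the 545 genes higher in the SUB1 background, 7 were also higher in IR64(AG1) (1.28% of the 545 and 21.2% of the 33), with a median log2 fold change of -0.10. Of the 50 genes that were lower, 24 were also lower in IR64(AG1) (48.0% of the 50 and 43.6% of the 55), with a median of -1.75. The difference between the line contrasts with and without SUB1 was tested directly as an interaction, which called 478 genes (1.83%). Of these, 434 had a more positive (1.66%) and 44 a more negative difference (0.168%) in the SUB1 background. The interaction cannot tell AG1 from other differences between the lines. With the replicate number as a block in the 14 d fit, 463 were more positive and 122 more negative. For PDC1 the log2 difference was 4.32 (adjusted p = 0.000356), and the gene stood at 4.66, 1.49 and 5.04 CPM in IR64(AG1) and at 6.04, 0.267 and 5 CPM in IR64. For OS02G0151800 and the unnamed OS09G0369400 it was 0.13 (adjusted p = 0.895) and 0.22 (adjusted p = 0.993). Replicate 2 of IR64 was the lowest of its line for most of the 545 genes, and without it 488 genes were more positive and 46 more negative.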

How the data were processed

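Poly(A)+ RNA of 4 near-isogenic genotypes at 2, 4, 8 and 14 d gave 45 libraries in 16 groups. Per the labels and methods, the authors trimmed reads, aligned them with Bowtie2 2.2.5 and TopHat2 2.0.14 to the Nipponbare genome (IRGSP-1.0) to which they had joined SUB1A-1, and then took exon counts in union mode; the values were deposited as raw counts per gene, with no normalization. The libraries were strand-specific, and whether counting used strand is not given in the sources used here. Alignment of indica reads to a japonica genome can lower the count of genes that differ in sequence or are missing there, equally in both lines unless a donor segment differs.

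Of 35677 genes, filterByExpr on the 16 groups kept 26180. TMM factors and quasi-likelihood fits of all libraries, 1 term for each group, came from edgeR 4.0.16 (R 4.3.3), and p-values were adjusted by Benjamini-Hochberg over all tested genes. Levels are CPM with TMM library sizes, and log2 CPM has a prior count of 2. At these depths 3 counts per library were taken as a floor. The fit of the 14 d comparison was tested on simulated data. It called 20 of 50 genes raised 2-fold and 19 of 50 lowered to 0.5 times. It called 50 of 50 raised 4-fold, 49 of 50 lowered to 0.25 times and 4 of 24994 unchanged genes. A list without a called gene can therefore still hold changes near 2-fold. In the 14 d comparison the standard error of the log2 fold change differed between genes, from 0.10 for OS02G0151800 to 1.19 for OS05G0428600, for example. Whether the data used for this check hold the same spread between replicates was not tested. Its counts may therefore not apply to genes with a wide spread, where larger changes may also be missed. The authors' own tests were not used.

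The libraries compared, the gene lists and the rules for naming genes were chosen with earlier results of these data known. Named were genes the paper names with an identifier that pairs (13 and SUB1A), the top 10 described genes by log2 fold change and the bottom 10 among those called at a mean of 5 CPM or more without overlap of the lines (5 fell), up to 2 unnamed genes per direction, up to 4 called or 2 abundant members per list, and up to 3 runs; those picked otherwise are marked. Descriptions paired with 3800 of the 35677 identifiers. Alternatives were DESeq2 1.42.0, no filter, the steps of the study (5 counts added, likelihood ratio test), fewer libraries in the fit, a replicate block, other lines, genes and prior counts for the stage score, and leaving out each library. Same-numbered libraries of IR64(AG1) and IR64 at 14 d had correlations of deviations from their group means of 0.169 to 0.231, each highest with its own number, so the numbers were taken to pair these 2 groups and a blocked fit was added after the data were seen. TPP7, SUB1B and SUB1C and all sequences are not analysed here.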

Additional observations from a re-analysis of the deposited data

Results flagged for a closer look

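The interaction test at 14 d (edgeR quasi-likelihood, adjusted over all tested genes) called 478 genes, and the 12 fits without a library called 364 to 599. The values below are log2 differences for the named genes called, IR64(AG1,SUB1) over IR64(SUB1) less IR64(AG1) over IR64. Differences between the lines outside AG1 also enter these values, and their part was not tested. Of the 46 named genes, 45 were also called between IR64(AG1,SUB1) and IR64(SUB1) at 14 d. That contrast is part of the interaction, and most of the genes were named for it. The values are therefore not independent of the 14 d fold changes. In the genes called higher, replicate 2 of IR64 (0.18 log2 CPM in the median) and of IR64(AG1) (0.77) stood under the other libraries of their lines, and their part in these differences was not tested.

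In carbon metabolism the difference was 4.32 for OS05G0469600, 4.1 for OS05G0469800, 1.69 for OS02G0601300, 1.34 for OS01G0190400 and 3.83 for OS03G0432100, which encode 2 pyruvate decarboxylases, a glyceraldehyde-3-phosphate dehydrogenase, a hexokinase and a dikinase. In lignin genes it was 5 for OS02G0811800, 4.36 for OS02G0811400, 4.42 for OS02G0808800 and 4.26 for OS04G0612700. In pectinesterases it was 4.3 for OS02G0288100, 3.6 for OS01G0788400 and 1.4 for OS01G0311800. For OS05G0104700, described as an inhibitor of fungal polygalacturonase, it was 3.8. In peroxidases it was 4.05 for OS03G0369000, 3.52 for OS03G0368000 and 3.1 for OS03G0368300.

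Heat shock genes differed by 4.86 for OS03G0267000, 3.91 for OS04G0107900 and 2.13 for OS03G0266300. Seed and germination genes differed by 6.81 for OS06G0473800, 4.73 for OS01G0911700 and 2.49 for OS01G0111600. Hormone genes differed by 4 for OS03G0750000, 2.04 for OS04G0398000, 3 for OS02G0805100, 1.92 for OS01G0764800 and 1.68 for OS03G0602300. Early nodulin genes differed by 4.7 for OS06G0141600, 4.01 for OS06G0141700, 3.33 for OS06G0142200, 2.43 for OS06G0142300, 3.19 for OS06G0142350 and 3.51 for OS06G0142400.

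Glycoside hydrolases differed by 5.16 for OS05G0247800 and 5.08 for OS05G0248200, a protease and protease inhibitor by 2.27 for OS01G0907600 and 4.5 for OS01G0915200, and a lipid transfer protein by 2.83 for OS05G0550600. Other described genes that were higher differed by 5.9 for OS01G0928700, 4.46 for OS02G0210700, 4.89 for OS01G0342900, 3.95 for OS01G0348900 and 4.17 for OS04G0659300. The glycolate oxidase gene GLO3 (OS04G0623500), which was not called at 14 d in the SUB1 background, differed by -1.01. Of the genes that were lower, the ankyrin repeat gene and the Mss4-like gene of chromosome 5 differed, by -8.08 for OS05G0124600 and -2.09 for OS05G0126800.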

How the results depend on the processing

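The count of genes called at 14 d stayed within 1.5 times of 595 under every alternative run, and the genes called higher (545) ranged from 458 to 601 over the settings that kept all 6 libraries. Genes called lower (50) were more sensitive to the setting: they numbered 94 with 5 counts added and the likelihood ratio test and 76 with only the 14 d libraries in the fit. Leaving out each library in turn gave 472 to 676 calls, 429 to 609 higher and 40 to 67 lower, with the highest counts without replicate 1 of IR64(AG1,SUB1). Of the 545 genes called higher, 527 were also higher by DESeq2 and 519 without that replicate, and of the 50 called lower 46 and 39 were. For the interaction the 12 fits without a library gave 364 to 599 calls, 327 to 512 more positive and 31 to 87 more negative. The stage score difference of -0.165 ranged from -0.191 to -0.15 without a library and was -0.184 on the line of IR64(AG1), -0.17 on the genes called in IR64 and -0.166 with a prior count of 5. On the other days DESeq2 gave 503 higher and 682 lower genes at 2 d, 380 calls with 151 higher at 4 d, and 117 lower at 8 d; with only the 2 groups in the fit there were 402 lower at 2 d, and 346 calls with 145 higher at 4 d. The cause of these differences was not tested.

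The labels give the groups the same replicate numbers. Same-numbered libraries of the 2 lines at 14 d had correlations of deviations of -0.025 to 0.14, and 1 of 3 correlated best with its own number, so the numbers were not taken as pairs of these lines, though they were for IR64(AG1) and IR64. Over all 6 pairs of groups 9 of 18 did so. With the number as a replicate block in the 14 d fit, 651 genes were called, 535 higher and 116 lower, and the interaction called 585, of which 122 were more negative. The block gave 106 calls for IR64(AG1) against IR64 in the 14 d fit and 125 in the fit of these 2 groups, against 88 without it.

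No log2 fold change of a named gene changed sign with a call. Against 2 calls with all libraries and the quasi-likelihood test, glutathione S-transferases had 4 with 5 counts added and the likelihood ratio test, and gibberellin had 2 by DESeq2 against 1. Of the lists with 0 calls, 1 gene was called in expansins by DESeq2 and with the block, in diterpenoids with the block, in abscisic acid and nitrogen genes with 5 counts added, and in nitrogen genes with only the 2 groups in the fit.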
